A study of Mus musculus with 16 samples.

Results

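The proteasome genes were followed while RANKL turned cultured macrophages into osteoclasts, with and without α-ketoglutarate. A gene counted as a member when its array feature carried exactly 1 gene symbol that begins with Psma, Psmb, Psmc, Psmd, Psme or Psmg followed by a number, and pseudogene symbols were left out. This gave 48 of the 22180 genes on the array, and for the 3 members with more than 1 feature (Psma5, Psmc2 and Psmg2) the feature with the highest mean was used. All 48 members had a mean above the minimum set for testing, the lowest 30% of genes (4.34 on the log2 scale), and 15526 genes in all were tested. Psma4 lay only on features with several symbols and was therefore not a member. By role the members were 13 core subunits (6 of the alpha ring, 3 constitutive catalytic beta subunits and 4 other beta subunits), 17 regulatory-particle subunits (6 ATPases and 11 non-ATPases), 7 assembly chaperones, 5 immunoproteasome genes (Psmb8, Psmb9, Psmb10, Psme1 and Psme2), 2 other activators (Psme3 and Psme4) and 2 tissue-restricted core subunits (Psma8 and Psmb11). The remaining 2, Psmc3ip and Psme3ip1, meet the rule by their symbol, but they encode partner proteins and not proteasome subunits.

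The proteasome is the barrel-shaped protease that degrades ubiquitin-tagged proteins. Its core is built of alpha and beta rings, and proteolysis takes place at the catalytic beta subunits inside. The regulatory particle caps the core. Its base holds ATPases that unfold and feed in substrates, together with non-ATPase subunits such as Psmd1. Its lid is built of further non-ATPase subunits, among them a deubiquitinase. In immune cells and under interferon, Psmb9, Psmb10 and Psmb8 take the places of Psmb6, Psmb7 and Psmb5 in newly made cores, and Psme1 and Psme2 form an alternative cap; both changes favour peptides for class I antigen presentation. In the osteoclast lineage, RANKL signalling needs the proteasome to remove the inhibitor of NF-κB.

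The cells were bone marrow-derived macrophages grown from tibias and femurs of male C57BL/6 mice aged 5 weeks, and their total RNA was measured on 16 arrays of 1 colour. All 16 received macrophage colony-stimulating factor (M-CSF). At 0 h, 2 arrays came from cells given M-CSF plus DW, the labels' name for the control treatment, and no RANKL. The DW arm had M-CSF, DW and RANKL and was measured at 3 and 6 h (early), 12 and 24 h (intermediate) and 48 and 72 h (late). The αKG arm had M-CSF, RANKL and 1 mM dimethyl α-ketoglutarate, an ester of the tricarboxylic acid cycle intermediate, and was measured at 0.5 and 1 h (fast) and at the same 6 later times. Each of the 8 groups therefore holds 2 arrays, and every time with RANKL is a single array in each arm. The labels do not say whether the arrays hold separate cultures or mice, so the p-values reflect only how far these arrays differ, including the step from the first to the second time of a phase. RANKL was missing only at 0 h, so its effect cannot be told apart from that of culture time in any comparison with 0 h. The 0 h arrays also had no ester. In comparisons of αKG arrays with 0 h, the effect of the ester therefore cannot be told apart from those of RANKL and time. Both arms were compared with the same 0 h arrays, and their values are set side by side only. In RNA from a whole culture, fewer cells of a type and less RNA per cell cannot be told apart either.

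Array medians lay between 4.84 and 4.93 on the log2 scale, and the difference between the 0 h arrays had an SD of 0.20 over all genes tested and 0.14 over the 48 members. The DW array at 72 h stood apart from the others. Its mean correlation with them was 0.928, against at least 0.960 for each other array, so the late values of the proteasome genes named below are also given without it. Macrophage markers (6 of 6 measured) averaged between 10.03 and 11.04 on every array. Osteoclast markers (6 of 6 measured) averaged 5.15 and 5.10 at 0 h, 9.61 and 11.28 in late DW arrays and 7.88 and 9.47 in late αKG arrays, and neutrophil markers (6 of 6 measured) averaged 7.83 and 7.81 at 0 h and between 4.92 and 5.70 in late arrays of both arms. T and NK cell, B cell and stromal markers averaged at most 4.53, 5.03 and 5.75 on any array.

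Sequences upstream of 6 members are given. They belong to Psmd10, which stood out from all other members, and to Psmc1, the ATPase with the smallest p in late DW arrays. The others belong to the inducible catalytic genes Psmb8 and Psmb9 and to the constitutive genes Psmb5 and Psmb6 that they replace. Each is the 250 bases before the annotated start in RefSeq, build GRCm38.p6, written 5′ to 3′ on the gene's strand, and capitals mark matches to the motifs listed after them. The windows are Psmd10 at chrX:140956712-140956961 (minus strand), Psmb8 at chr17:34197945-34198194 (plus), Psmb9 at chr17:34187331-34187580 (minus), Psmb5 at chr14:54617996-54618245 (minus), Psmb6 at chr11:70525107-70525356 (plus) and Psmc1 at chr12:100109952-100110201 (plus).
Psmd10: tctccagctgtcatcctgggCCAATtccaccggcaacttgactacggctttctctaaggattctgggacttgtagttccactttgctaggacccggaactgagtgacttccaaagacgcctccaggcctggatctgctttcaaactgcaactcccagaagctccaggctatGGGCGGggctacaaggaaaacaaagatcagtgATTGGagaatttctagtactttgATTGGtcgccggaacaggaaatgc
Psmb8: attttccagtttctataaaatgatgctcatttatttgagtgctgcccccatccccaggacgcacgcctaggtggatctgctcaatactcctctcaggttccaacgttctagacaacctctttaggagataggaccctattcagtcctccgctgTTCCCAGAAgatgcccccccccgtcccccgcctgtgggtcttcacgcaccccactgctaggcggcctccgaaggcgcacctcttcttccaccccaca
Psmb9: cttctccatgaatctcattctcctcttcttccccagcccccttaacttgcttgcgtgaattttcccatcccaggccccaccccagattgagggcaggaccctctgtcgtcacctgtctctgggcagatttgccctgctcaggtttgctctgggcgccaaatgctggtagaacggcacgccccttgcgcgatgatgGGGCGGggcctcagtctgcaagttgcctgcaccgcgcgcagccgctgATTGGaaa
Psmb5: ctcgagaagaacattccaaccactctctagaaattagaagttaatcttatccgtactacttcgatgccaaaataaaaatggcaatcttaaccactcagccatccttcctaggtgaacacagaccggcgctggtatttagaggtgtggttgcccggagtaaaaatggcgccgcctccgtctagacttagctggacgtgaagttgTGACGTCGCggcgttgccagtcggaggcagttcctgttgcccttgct
Psmb6: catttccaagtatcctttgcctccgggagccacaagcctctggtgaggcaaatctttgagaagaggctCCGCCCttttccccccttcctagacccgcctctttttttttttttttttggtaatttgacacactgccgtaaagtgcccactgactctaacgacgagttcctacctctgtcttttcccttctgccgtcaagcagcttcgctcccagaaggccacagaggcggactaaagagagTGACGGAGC
Psmc1: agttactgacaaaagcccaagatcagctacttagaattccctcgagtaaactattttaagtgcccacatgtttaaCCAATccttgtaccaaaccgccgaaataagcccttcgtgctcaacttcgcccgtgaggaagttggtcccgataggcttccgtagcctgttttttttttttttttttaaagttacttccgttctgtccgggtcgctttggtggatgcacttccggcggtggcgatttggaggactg
The capitals in the Psmd10 window are a CCAAT box on the gene's strand, 2 on the opposite strand (ATTGG) and a GC box (GGGCGG). Psmb8 holds a STAT motif, Psmb9 a GC box and a CCAAT box, Psmb5 and Psmb6 each the core of an antioxidant response element, Psmb6 also a GC box, and Psmc1 a CCAAT box. The antioxidant response element core is a site bound by the CNC factors, among them Nfe2l1, a known activator of proteasome genes.

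Promoter windows were found for 40 of the 48 members and searched on both strands, beside the same windows of all 27025 genes with one. The antioxidant response element core (TGACNNNGC or TGAGNNNGC) was in 12 of 40 member windows (30%) and in 25.7% of all windows. The CCAAT box was in 16 of 40 and in 37.5% of all, and the GC box (GGGCGG) was in 22 of 40 and in 35.4% of all. The κB motif (GGGA, 2 bases of any kind, T, 1 base of any kind, CC) was in 2 of 40 (Psma6 and Psme4) and in 3.8% of all, the interferon regulatory factor motif (GAAA, 2 bases of any kind, GAAA) was in 3 (Psmb3, Psmd4 and Psmd9) and in 3.46% of all, and the STAT motif (TTCNNNGAA) was in 2 (Psmb8 and Psmg1) and in 8.13% of all. The motifs were counted separately, and in the 6 windows printed no match overlapped another. Of the 5 immunoproteasome genes only Psmb8 held the STAT motif, and none held the κB or interferon regulatory factor motif as spelled here. Psmb10, which is not among the genes printed, held none of the motifs searched. A match describes the letters of this window and is not a measured binding site.

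Psmd10 was the proteasome gene that passed the threshold against 0 h in the fit of all arrays. It encodes gankyrin, a chaperone that binds an ATPase of the base during assembly of the regulatory particle and is absent from the finished proteasome. Its transcript rose between 2.01-fold and 2.54-fold over 0 h in all 3 RANKL phases of both arms, and it was the only one of the 48 members past the threshold in any of them. The Psmd10 rise was present by 3 h, the first DW time, and remained to 72 h.

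The Psmd10 log2 values were 7.32 and 7.67 at 0 h. In the DW arm they were 8.75, 8.90, 8.64, 8.74, 8.85 and 8.82 at 3, 6, 12, 24, 48 and 72 h. In the αKG arm they were 7.67 and 7.75 at 0.5 and 1 h and 8.52, 8.75, 8.77, 8.49, 8.43 and 8.57 at 3 to 72 h. The values thus ran from 7.32 to 7.75 up to 1 h and from 8.43 to 8.90 from 3 h on. How many of all genes tested split in this way was not counted. Against 0 h the log2 difference in DW arrays was 1.33 ± 0.16 early (adjusted p = 0.0101), 1.20 ± 0.16 intermediate (adjusted p = 0.00862) and 1.34 ± 0.16 late (adjusted p = 0.000800), where ± is the standard error. In αKG arrays it was 1.14 ± 0.16 early (adjusted p = 0.0111), 1.13 ± 0.16 intermediate (adjusted p = 0.0124) and 1.01 ± 0.16 late (adjusted p = 0.0101). The adjusted p is from limma with Benjamini-Hochberg adjustment over all 15526 genes, with a threshold of 0.05. In the fast αKG arrays the log2 difference was 0.21 ± 0.16 and not past the threshold (95% interval -0.14 to 0.56).

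Psmd10 as 1 of 48 members that rose stands beside background shares that rose of 0.303% of all genes tested in early DW arrays, 0.451% intermediate and 3.34% late, and of 0.399%, 0.432% and 0.631% in the same αKG phases. In the fast αKG arrays 0 of 48 members and 0% of all genes passed, with 0 members at an unadjusted p under 0.05. Among all genes tested Psmd10 ranked 6th by p in early DW arrays, 19th in intermediate and 67th in late ones. Without the DW array at 72 h the late difference was 1.36 (adjusted p = 0.00530), and without that at 48 h it was 1.32 (adjusted p = 0.00199). The early call in each arm was lost when either 0 h array or either early array of that arm was left out (adjusted p from 0.0651 to 0.173, log2 difference 0.96 to 1.51). The intermediate call was lost without either 0 h array, and also without the 24 h array with DW or the 12 h array with αKG (adjusted p from 0.0505 to 0.183, log2 difference 0.96 to 1.37). The late αKG call was lost without the first 0 h array (0.83, adjusted p = 0.156) or the 72 h array (0.94, adjusted p = 0.120). With only the groups compared in the fit, both intermediate and both late calls were lost (adjusted p from 0.0732 to 0.229). The log2 difference stayed above 0 in each of these fits.

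Psmd10 did not differ between the arms past the threshold. The αKG value lay below the DW value at 5 of 6 times, the exception being 12 h, and the mean log2 difference was -0.20 ± 0.07 (adjusted p = 0.293, 95% interval -0.36 to -0.03). In late arrays it was -0.33 ± 0.11 (adjusted p = 0.151, 95% interval -0.59 to -0.08), and without the 72 h pair it was -0.42 (adjusted p = 0.220).

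None of the other 6 chaperones passed the threshold against 0 h in either arm. Psmd5 and Psmd9, which also assist base assembly, gave DW values between 8.66 and 8.92 and between 6.56 and 7.01, against 8.64 and 8.85, and 6.82 and 7.09, at 0 h. Psmd5 in αKG arrays was highest at 6 h, at 9.38, and its early log2 difference from 0 h of 0.52 ± 0.17 missed the threshold (adjusted p = 0.335). Over the 16 arrays, which share times and treatments, Psmd10 correlated with Psmd5 at r = 0.25 and with Psmd9 at r = -0.19. Psmg1 and Psmg2, the pair of chaperones that start the alpha ring, moved together (r = 0.89), with low values at 12 and 72 h in both arms and also at 6 h with αKG. The second Psmg2 feature was dim, with a mean of 2.87, and did not follow the one used (r = -0.21). Psmg2 read 7.46 and 7.44 at 0 h, 7.28, 7.08, 6.77, 7.77, 7.56 and 6.14 in the DW arm from 3 to 72 h, and 7.32, 7.09, 7.23, 6.65, 6.68, 7.50, 7.63 and 6.77 in the αKG arm from 0.5 to 72 h. Psmg3 and Psmg4, the partner chaperones of alpha-ring assembly, varied with an SD of 0.18 and 0.15 over all arrays.

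**Figure D1:**
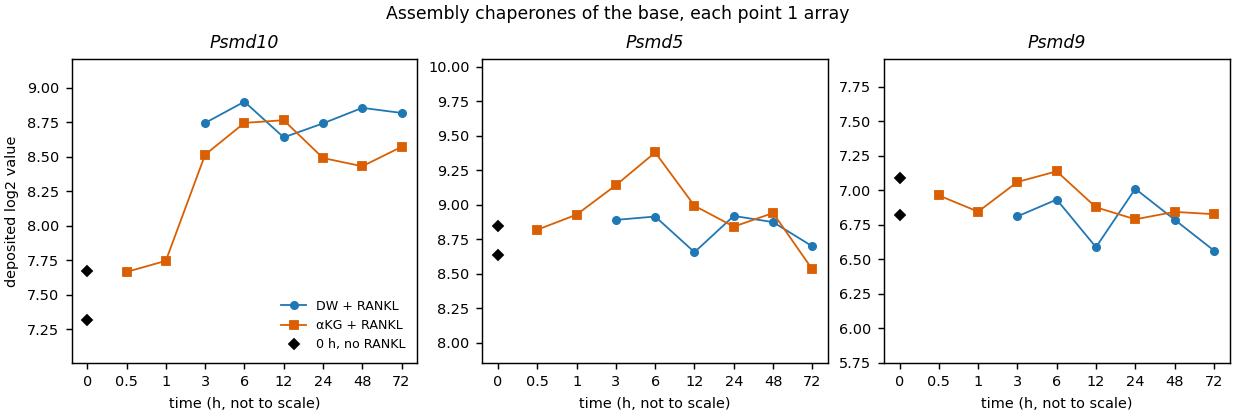
Deposited log2 values (y axis, each panel spanning 2.2 log2 units) of the base-assembly chaperones Psmd10, Psmd5 and Psmd9 against time in hours (x axis, not to scale); each point is 1 array, black at 0 h without RANKL, blue DW with RANKL, orange αKG with RANKL. Psmd10 lies between 7.32 and 7.75 up to 1 h and between 8.43 and 8.90 from 3 h on, while Psmd5 and Psmd9 stay within 8.53 to 9.38 and 6.56 to 7.14.

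The immunoproteasome genes were compared with the constitutive subunits they replace. Psmb10 and Psmb9 had their highest values at 6 and 12 h in the DW arm, 0.78 and 0.93 (Psmb10) and 0.54 and 0.62 (Psmb9) log2 units above 0 h, and from 24 h on were at most 0.30 above it. Psmb8 was 0.25 and 0.28 above 0 h at those times. None of the 5 passed the threshold in any comparison with 0 h. All 5 had early DW values above 0 h (median log2 difference 0.32, against -0.0032 for all genes tested), as did 4 of 5 in the intermediate phase (median 0.25, all genes -0.01).

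Psmb10, the inducible subunit with trypsin-like activity, had log2 values of 9.00 and 9.10 at 0 h. In the DW arm it read 9.35, 9.83, 9.98, 9.25, 9.13 and 9.00 from 3 to 72 h, and in the αKG arm 9.15, 9.11, 9.14, 9.54, 9.81, 9.18, 9.12 and 9.28 from 0.5 to 72 h. The 6 and 12 h arrays were the highest in each arm, and every array from 48 h on had returned to within 0.23 of the 0 h mean. The log2 difference from 0 h in DW arrays was 0.54 ± 0.27 early (adjusted p = 0.874, 95% interval -0.04 to 1.13) and 0.57 ± 0.27 intermediate (adjusted p = 0.584, 95% interval -0.02 to 1.15).

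Psmb9, the inducible subunit that replaces Psmb6, read 7.55 and 7.68 at 0 h and 7.75, 8.15, 8.23, 7.80, 7.92 and 7.61 in the DW arm. In the αKG arm it read 7.52, 7.60, 7.48, 7.64, 8.12, 7.52, 7.65 and 7.89 from 0.5 to 72 h, so that at 6 h it stood at the 0 h level and only the arrays at 12 and 72 h were above all others of that arm. Its log2 difference from 0 h in DW arrays was 0.34 ± 0.23 early and 0.40 ± 0.23 intermediate. Psmb8, the inducible chymotrypsin-like subunit, read 9.44 and 9.52 at 0 h, 9.49, 9.72, 9.76, 9.70, 9.87 and 9.29 in the DW arm, and 9.54, 9.52, 9.42, 9.61, 9.75, 9.68, 9.67 and 9.60 in the αKG arm. Its DW array at 72 h was the lowest of the 16, and its DW array at 48 h the highest.

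The activator subunits followed the catalytic ones only in part. Psme1 read 10.17 and 10.20 at 0 h, 10.26, 10.24, 10.62, 9.93, 9.93 and 9.82 in the DW arm and 10.28, 10.01, 10.20, 10.11, 10.32, 10.10, 9.93 and 10.00 in the αKG arm, with the 12 h array the highest in each arm. Psme2 read 6.33 and 6.59 at 0 h, 7.07, 6.48, 6.58, 6.26, 6.44 and 6.59 in the DW arm and 6.58, 6.85, 6.45, 6.89, 6.22, 6.50, 6.49 and 6.43 in the αKG arm. The Psme2 arrays showed no common course, and its highest value was at 3 h with DW and 6 h with αKG. Over the 16 arrays, which share times and treatments, the 10 pairs of immunoproteasome genes had a median r of 0.31, with Psmb9 and Psmb10 the closest at r = 0.84.

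None of the constitutive partners passed the threshold against 0 h. Psmb5 read 8.39 and 8.54 at 0 h, 8.35, 8.56, 8.37, 8.68, 8.75 and 8.26 in the DW arm and 8.40, 8.27, 8.46, 8.80, 8.73, 8.80, 8.74 and 8.44 in the αKG arm. Psmb6 read 9.52 and 9.64 at 0 h, 9.81, 9.93, 9.74, 9.76, 9.58 and 9.38 in the DW arm and 9.66, 9.69, 9.83, 9.93, 9.83, 9.71, 9.51 and 9.69 in the αKG arm. Psmb7 read 9.76 and 9.87 at 0 h, 9.82, 9.84, 9.56, 9.96, 10.54 and 9.54 in the DW arm and 9.78, 9.77, 9.81, 9.78, 9.58, 9.85, 10.09 and 9.70 in the αKG arm. Psmb7 was highest at 48 h in both arms and near its lowest at 12 h, when Psmb10 was highest. Psmb6 was highest at 6 h in both arms, with an early log2 difference from 0 h of 0.29 ± 0.12 with DW (adjusted p = 0.683) and 0.30 ± 0.12 with αKG (adjusted p = 0.489).

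The change of each inducible gene minus the change of its partner, both on the log2 scale from 0 h, was largest at 12 h in the DW arm. It was 1.19 for Psmb10 against Psmb7, 0.46 for Psmb9 against Psmb6 and 0.38 for Psmb8 against Psmb5. With αKG at 12 h the same differences were 1.00, 0.25 and 0.00. For Psmb10 against Psmb7 the difference was below 0 at 48 h, at -0.63 with DW and -0.20 with αKG, when Psmb7 was at its highest, and it was back above 0 at 72 h, at 0.22 and 0.35. These are differences of changes on single arrays, with no replicate at a time and no test.

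Genes of class I presentation and the interferon response, of which 20 of 24 listed were measured, had their highest mean at the same times. Their mean log2 value was 8.17 and 8.27 at 0 h, 9.11 and 9.04 at 6 and 12 h with DW, 8.88 and 8.95 at those times with αKG, and between 7.98 and 8.52 from 24 h on. Of the 20, 1 passed in early DW arrays (H2-K1, a class I heavy chain, at 0.75 ± 0.13, adjusted p = 0.0438) and 3 in intermediate ones (H2-K1 at 1.04 ± 0.13, adjusted p = 0.00727, with Tapbp, which loads peptides on class I, and B2m, its light chain). Of all genes tested, 0.303% rose in early and 0.451% in intermediate DW arrays. In αKG arrays 0 passed early (0.399% of all genes tested rose), and the same 3 genes passed in the intermediate phase (0.432%). These calls were not stable: over 12 alternative fits with DW, H2-K1 passed in 5 early (adjusted p up to 0.393) and 9 intermediate (up to 0.195), Tapbp in 3 (up to 0.352) and B2m in 2 (up to 0.357). With αKG the counts were 8, 5 and 6 of 12. Leaving out either 0 h array ended each of these calls, and so did either array of the phase for Tapbp and B2m in both arms and for H2-K1 in early DW, and the 12 h array for H2-K1 with αKG. The sign was kept in every fit. These genes did not share the course of the list mean. At 24, 48 and 72 h with DW, H2-K1 read 10.77, 10.42 and 10.59, against 9.78 and 9.94 at 0 h. Tapbp read 10.40, 10.10 and 9.99 at those times, against 9.63 and 9.73 at 0 h. The part of the class I and interferon genes in the immunoproteasome values was not tested.

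**Figure D2:**
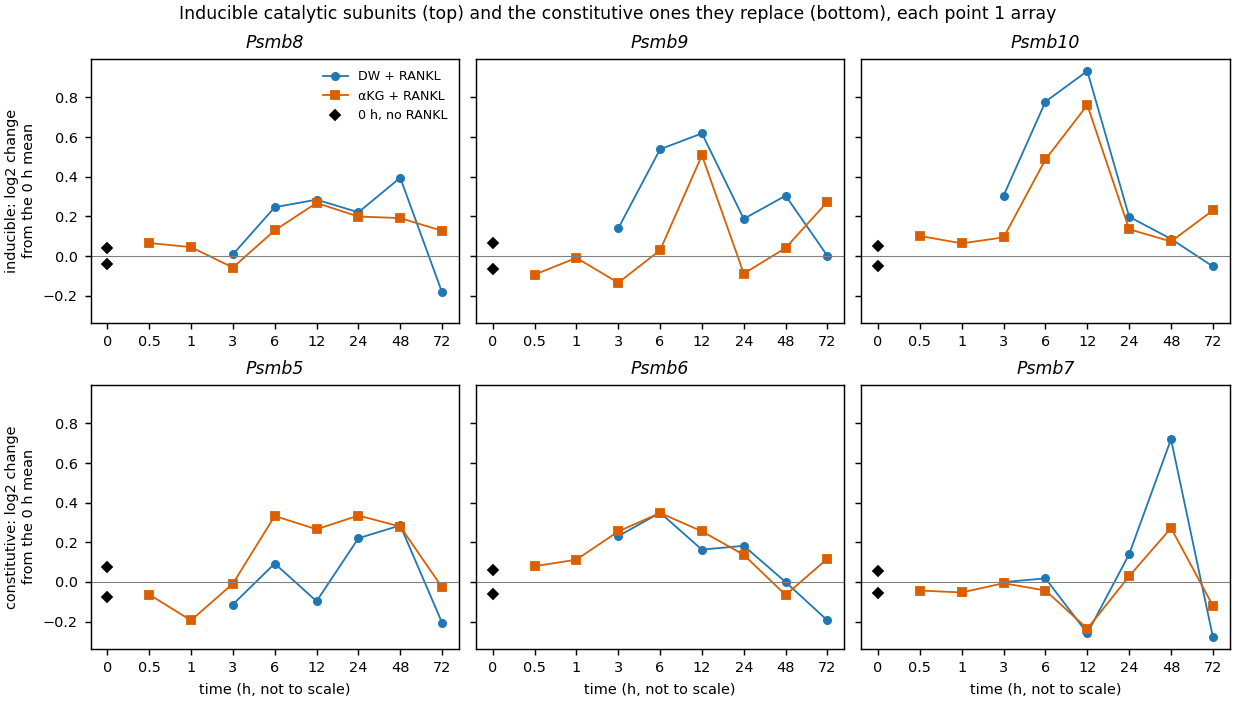
Log2 change from the mean of the 0 h arrays (y axis) of the inducible catalytic subunits Psmb8, Psmb9 and Psmb10 (top) and of Psmb5, Psmb6 and Psmb7, which they replace (bottom), against time in hours (x axis, not to scale); each point is 1 array, black at 0 h, blue DW with RANKL, orange αKG with RANKL. Psmb10 reaches 0.93 with DW and 0.76 with αKG at 12 h, when Psmb7 is at -0.26 and -0.24.

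The median core and regulatory values stayed within 0.23 log2 of 0 h up to 48 h and were lowest at 72 h in both arms. The DW array at 72 h held the lowest of the 16 values for 35 of the 48 members (72.9%), against 19.6% of all genes tested. These were all 17 regulatory-particle subunits, 10 of 13 core subunits, 3 of 5 immunoproteasome genes, 3 of 7 chaperones (Psmd9, Psmg1 and Psmg2), Psme3 and Psmc3ip. Psmd10, Psme4 and Psme2 were among the 13 members that were lowest on another array.

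From 48 to 72 h with DW, 45 of 48 members were lower, 24 of them by at least 0.5 log2, as were 14.5% of all genes tested by that amount. The median log2 difference was -0.70 for the regulatory particle (17 of 17 lower), -0.49 for the core (13 of 13 lower) and -0.14 for the immunoproteasome (4 of 5 lower), against -0.01 for all genes tested. Over the same step with αKG, 38 of 48 members were lower, 8 of them by at least 0.5 log2 beside 9.68% of all genes tested. The medians were then -0.46 for the regulatory particle, -0.27 for the core and 0.07 for the immunoproteasome. Each of these steps compares 1 array with 1 array and has no test, and with quantile normalization or centring the DW count by at least 0.5 log2 was 22 or 27.

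Psmc1, an ATPase of the base, had log2 values of 9.11 and 9.07 at 0 h, 9.14, 9.11, 8.72, 8.70, 8.85 and 8.09 in the DW arm and 9.13, 9.01, 9.09, 9.11, 8.87, 8.84, 8.96 and 8.55 in the αKG arm. All 6 ATPases lay below 0 h in late DW arrays, with a median log2 difference of -0.37. Psmc1 had the smallest p of them, at -0.62 ± 0.21 (adjusted p = 0.115), or -0.24 without the 72 h array, and it was -0.34 ± 0.21 with αKG (adjusted p = 0.617). Psmc5 read 8.05 and 8.15 at 0 h and 7.10 and 7.46 at 72 h with DW and αKG.

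Psmd1, a large scaffold subunit of the base, read 9.48 and 9.35 at 0 h, 9.52, 9.37, 9.13, 9.43, 9.34 and 8.69 in the DW arm and 9.43, 9.49, 9.58, 9.56, 9.21, 9.26, 9.41 and 8.94 in the αKG arm. Its late DW difference of -0.40 ± 0.21 did not pass (adjusted p = 0.313) and was -0.07 without the 72 h array. The 17 regulatory-particle genes as a set were at a median of -0.23 from 0 h at 12 h with DW and -0.16 with αKG, 0.04 and 0.03 at 48 h, and -0.64 and -0.42 at 72 h. Psmd14, the deubiquitinase of the lid, and Psmd4, a ubiquitin receptor, read 7.09 and 8.12 at 72 h with DW, where their 0 h values were 7.75 and 7.70, and 8.26 and 8.37.

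Psma1, of the alpha ring, read 9.06 and 9.09 at 0 h, 9.03, 8.77, 8.78, 8.88, 9.11 and 8.29 in the DW arm and 8.94, 8.89, 9.02, 8.91, 9.02, 8.94, 9.21 and 8.86 in the αKG arm. Its late DW difference was -0.37 ± 0.22 (adjusted p = 0.381) and turned to 0.037 without the 72 h array (adjusted p = 0.962). Psmb2, a non-catalytic beta subunit, read 8.82 and 8.68 at 0 h, 8.73, 8.81, 8.69, 8.78, 8.75 and 8.32 in the DW arm and 8.68, 8.64, 8.76, 8.65, 8.69, 8.66, 8.69 and 8.36 in the αKG arm, with a late DW difference of -0.21 ± 0.16 (adjusted p = 0.490), or -0.0033 without the 72 h array. For both genes the 72 h array was the lowest of each arm, but for Psma1 with αKG it lay close to the arrays at 1 and 6 h.

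In the late DW comparison as a whole, 16 of 17 regulatory-particle genes lay below 0 h (median -0.32), as did 7 of 13 core genes (median -0.02), and 0 of these 30 passed the threshold (6.64% of all genes tested passed, and 3.3% fell). Without the 72 h array the regulatory median turned to 0.04, and the median of all 48 members turned from -0.14 to 0.11. The calls also depended on which late array was used. With the 72 h array alone, 10 members passed: Psmd10 rose, and Psma1, Psma5, Psmc1, Psmc2, Psmc4, Psmc5, Psmd1, Psmd3 and Psmd13 fell. These 9 of 48 (18.8%) stand beside 8.01% of all genes tested that fell and 6.03% that rose in the same fit. Psma1 was at -0.78 ± 0.17 there (adjusted p = 0.0147), and Psmc1 had the smallest p of the 9 (adjusted p = 0.00372). With the 48 h array alone, Psmd10 rose and 0 members fell, beside 1.3% and 1.66% of all genes tested. Each of these fits has a lone late array, which is assumed to vary like the other groups. Psma5 was dim, with a mean of 4.68 and a value of 3.69 on the DW array at 72 h, where the minimum mean for testing was 4.34.

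Proliferation markers were also lower at 72 h than at 48 h. Proliferation markers (5 of 6 measured) averaged 8.86 at 48 h and 6.79 at 72 h with DW, and 8.86 and 8.29 with αKG, while at 0 h they averaged 8.92 and 8.94. At 12 and 24 h they averaged 8.35 and 8.70 with DW and 7.76 and 8.06 with αKG. In the αKG arm they were thus lowest at 12 h and not at 72 h. The other marker calls join 48 and 72 h. Among osteoclast markers 5 of 6 rose in late DW arrays and 4 of 6 in late αKG arrays. All 6 neutrophil markers fell in both, and 2 of 6 macrophage markers fell with DW and 1 of 6 with αKG. Of all genes tested, 3.34% rose and 3.3% fell in late DW arrays. In late αKG arrays 0.631% rose, and 222 of 15526 passed in either direction. Neutrophil markers already averaged 5.25 with DW and 5.70 with αKG at 48 h. Macrophage markers were higher at 72 h than at 48 h, at 10.81 against 10.03 with DW and 10.86 against 10.34 with αKG. The part of cell number, cell type and the standing of the DW 72 h array in the lower proteasome values was not tested.

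**Figure D3:**
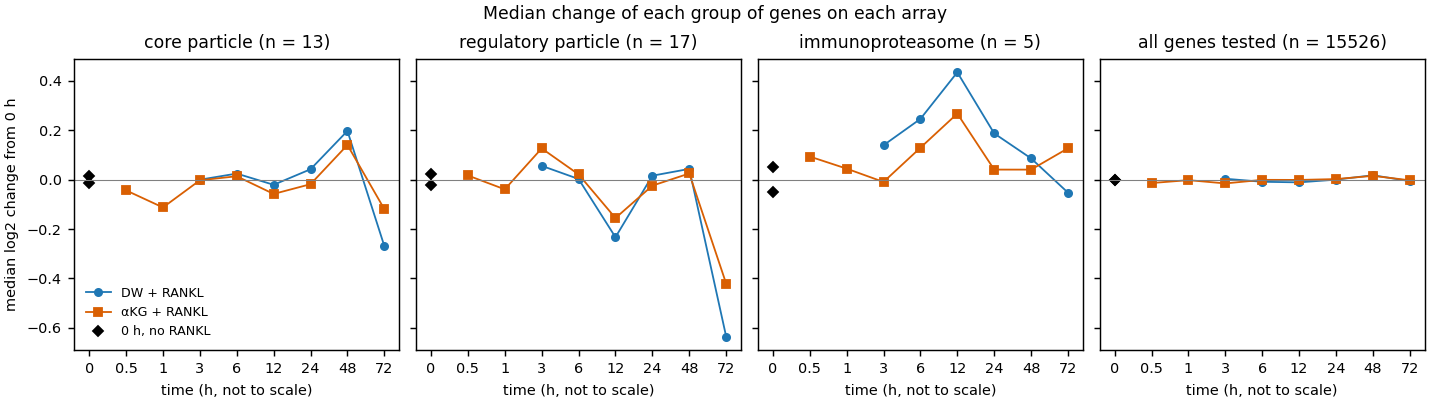
Median log2 change from the mean of the 0 h arrays (y axis) over the 13 core genes, the 17 regulatory-particle genes, the 5 immunoproteasome genes and all 15526 genes tested, against time in hours (x axis, not to scale); each point is 1 array, black at 0 h, blue DW with RANKL, orange αKG with RANKL. The regulatory median reaches -0.64 with DW and -0.42 with αKG at 72 h, the immunoproteasome median peaks at 12 h, at 0.44 and 0.27, and the all-gene median stays between -0.02 and 0.02.

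Regulatory-particle genes varied in step with each other. Over the 16 arrays, which share times and treatments, their 136 pairs had a median r of 0.82, against 0.39 for the 78 pairs of core genes. Without the DW array at 72 h the regulatory median was 0.62, and without both 72 h arrays it was 0.46. Psmd10 correlated with the mean of the regulatory-particle genes at r = -0.21, and Psmb10 at r = -0.01. Psme3, the nuclear activator, correlated with it at r = 0.79 and with the alpha-ring chaperone Psmg2 at r = 0.90. Across all members the SD over the 16 arrays ranged from 0.09 for Psmb1, a core beta subunit, to 0.51 for Psmd10.

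**Figure D4:**
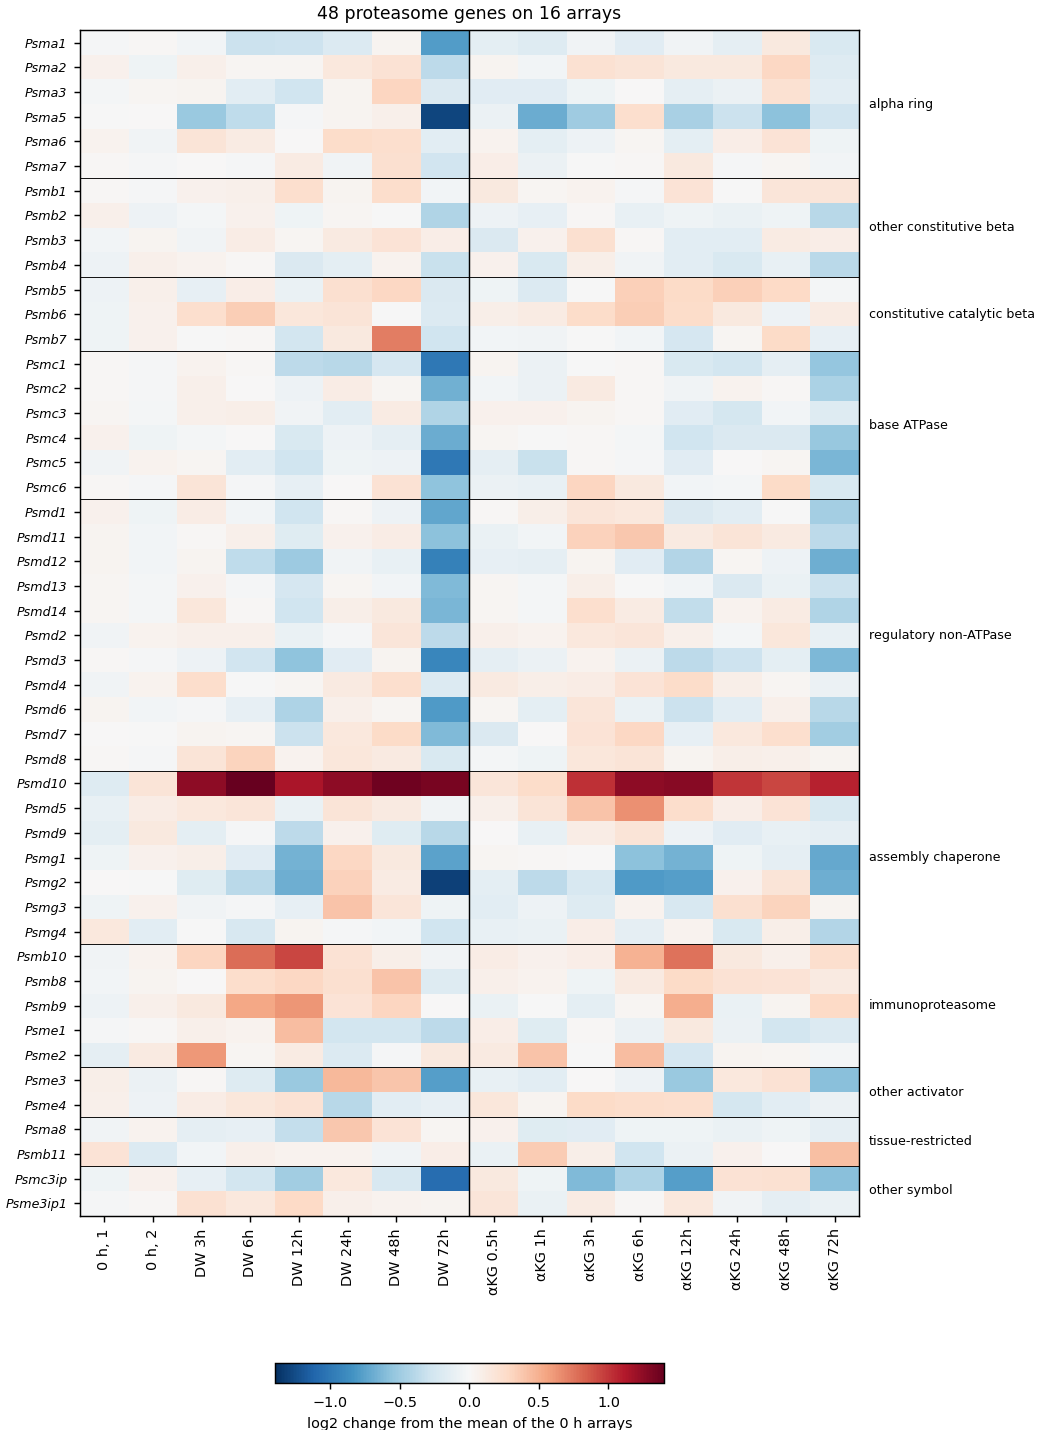
Log2 change from the mean of the 0 h arrays (colour, red above and blue below 0) for the 48 members (y axis, grouped by role) on the 16 arrays (x axis, 0 h and DW arrays at left and αKG arrays at right, in order of time). Psmd10 is red on all 12 arrays from 3 h on, Psmb9 and Psmb10 are red at 6 and 12 h with DW, and the DW column at 72 h is blue for most core and regulatory genes.

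The other activators and the tissue-restricted subunits did not pass the threshold in any comparison. Psme4, an activator linked to histone turnover, read 8.92 and 8.78 at 0 h, 8.96, 9.00, 9.05, 8.46, 8.70 and 8.74 in the DW arm and 9.01, 8.89, 9.12, 9.10, 9.09, 8.61, 8.71 and 8.77 in the αKG arm, so that the arrays from 24 h on were lower than those before. Its late DW difference was -0.13 ± 0.20 (adjusted p = 0.751), or -0.15 without the 72 h array. Psma8, the alpha subunit of the testis, read 5.42 and 5.51 at 0 h, between 5.13 and 5.84 in the DW arm and between 5.30 and 5.53 in the αKG arm. Psmb11, the beta subunit of the thymus, read between 4.30 and 5.00 on all arrays, close to the minimum of 4.34 for testing.

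The αKG question was whether the ester changed these genes at matched times. None of the 48 members passed the threshold in any of the 5 tests of αKG against DW in limma: 0 over the 6 matched times (0.399% of all genes tested passed), 0 early (0.161%), 0 intermediate (0.0966%), 0 late (4.27%) and 0 for the late minus the early effect (0.605%). At an unadjusted p under 0.05 there were 6, 6, 1, 4 and 4 members. A fit without the pairing by time gave 0 members in each test too. The 95% interval of a member reached a median of 0.15 log2 to either side of its estimate over the 6 times and 0.25 within a phase. These intervals are not adjusted for the number of genes. Larger estimates, as for Psmd11 and Psmb9 below, also missed the adjusted threshold, so αKG differences of that size are not excluded.

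Psmd11, a scaffold subunit of the lid, had the smallest p over the 6 times. Its log2 values were 9.49 and 9.42 at 0 h, 9.47, 9.52, 9.28, 9.51, 9.56 and 8.88 in the DW arm and 9.37, 9.42, 9.78, 9.83, 9.58, 9.64, 9.58 and 9.09 in the αKG arm. The αKG value was the higher at 6 of 6 times, by 0.02 to 0.31, with a mean of 0.21 ± 0.06 (adjusted p = 0.166, 95% interval 0.08 to 0.34), and without the 72 h pair the mean was also 0.21. Psme4 was also higher with αKG at 6 of 6 times and Psme3ip1 lower at 6 of 6, while 4.36% of all genes tested were higher and 3.98% lower at all 6. Psmb5 was higher with αKG at 5 of 6 times, with a mean of 0.17 ± 0.06 (adjusted p = 0.302, 95% interval 0.03 to 0.31).

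The mean of each of the 5 immunoproteasome genes was lower with αKG in the early and in the intermediate phase, with medians of -0.11 and -0.07, and none passed. At single times all 5 were lower at 3 and 12 h, 4 of 5 at 6 h and 3 of 5 at 24 h, with Psme2 higher with αKG by 0.40 at 6 h and 0.23 at 24 h and Psme1 by 0.17 at 24 h. Psmb9 differed by -0.39 ± 0.14 early (adjusted p = 0.463, 95% interval -0.71 to -0.07), from -0.27 at 3 h and -0.51 at 6 h. Psmb10 differed by -0.25 ± 0.10 early (adjusted p = 0.499, 95% interval -0.47 to -0.03). At 72 h, 4 of 5 were higher with αKG, and the late minus the early effect was above 0 for all 5, with Psmb10 at 0.39 ± 0.14 (adjusted p = 0.244), 0.24 without the 72 h pair (adjusted p = 0.591) and 0.53 without the 48 h pair (adjusted p = 0.0302). The Psmb10 values without a pair each rest on a lone late pair. Without the 48 h pair more of all genes tested passed too, so that call is not specific to Psmb10. The class I and interferon genes had a median αKG difference of -0.28 in early and 0.38 in late arrays. In late arrays 3 of 20 passed, beside 4.27% of all genes tested, all 3 higher with αKG: Nlrc5, the class I transactivator (0.67 ± 0.12, adjusted p = 0.0169), Irf7, an interferon regulatory factor (0.57 ± 0.11, adjusted p = 0.0280), and the interferon-induced Mx1 (0.88 ± 0.18, adjusted p = 0.0296). Of 14 alternative fits these passed in 10, 9 and 7, and without the pairing by time in none (adjusted p = 0.655, 0.577 and 0.682). Leaving out the 3 or 6 h pair ended all 3 calls, the 72 h pair those of Nlrc5 (0.65, adjusted p = 0.0701) and Irf7 (0.41, adjusted p = 0.172), and the 12, 24 or 48 h pair that of Mx1. Their part in the immunoproteasome values was not tested.

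At 72 h the αKG value was the higher for 41 of 48 members, with a median difference of 0.21 against 0.02 for all genes tested, where the DW array is the one that stands apart. At 24 h it was the lower for 36 of 48, with a median of -0.07 against -0.01. In the late test 16 of 17 regulatory-particle genes were above 0 (median 0.11, all genes 0.01) and 0 passed. That direction came from the 72 h pair: at 48 h 7 of 17 were above 0, with a median of -0.02, and at 72 h all 17 were. Psmc1 was at 0.28 ± 0.11 (adjusted p = 0.188) and Psma1 at 0.34 ± 0.12 (adjusted p = 0.177), and without the 72 h pair they were at 0.11 and 0.10. With the 72 h pair as the only late pair, 4 members passed as higher with αKG, beside 6.92% of all genes tested: Psma1 (0.57 ± 0.13), Psma5 (1.02 ± 0.23), Psmc1 (0.46 ± 0.12) and Psmg2 (0.63 ± 0.17). With the 48 h pair as the only late pair, 0 passed. Psma5 was dim, and its second feature correlated with the one used at r = 0.24, so that its values are less certain.

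Psmc3ip, a cofactor of meiotic recombination that meets the rule by its symbol, had the smallest p in the late test. It read 6.05 and 6.16 at 0 h, 6.00, 5.85, 5.61, 6.26, 5.88 and 5.04 in the DW arm and 6.24, 6.05, 5.49, 5.67, 5.33, 6.31, 6.32 and 5.52 in the αKG arm. The αKG value was the lower at 3, 6 and 12 h and the higher from 24 h on, and the late minus the early effect was 0.80 ± 0.20 (adjusted p = 0.108), or 0.78 without the 72 h pair.

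**Figure D5:**
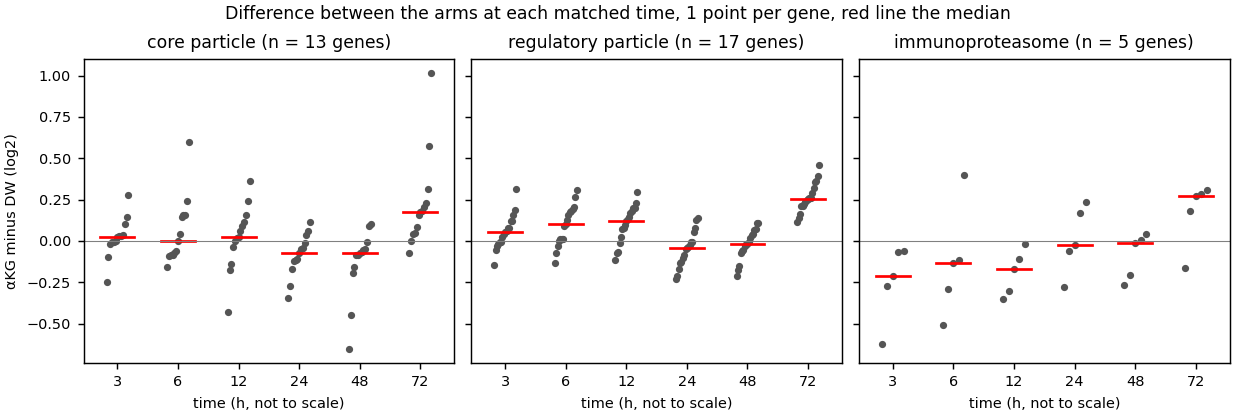
Difference of the log2 values of αKG and DW arrays (y axis) at each of the 6 matched times in hours (x axis, not to scale) for the core, regulatory-particle and immunoproteasome genes; each point is 1 gene, ordered by value within a time, and the red line is the median. The immunoproteasome medians are at -0.21, -0.13 and -0.17 at 3, 6 and 12 h and at 0.27 at 72 h, and all 17 regulatory-particle genes are above 0 at 72 h.

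Other genes of the pathway were taken from a list of 23, of which 17 were measured and tested. Of all genes tested, 3.34% rose and 3.3% fell in late DW arrays, and 4.27% passed in late αKG against DW. In late DW arrays 1 of 17 rose and 0 fell: Zfand5, a ubiquitin-binding protein that activates the proteasome, by 1.15 ± 0.18 (adjusted p = 0.00356; 0.0300 without the 72 h array and 0.0780 with only the groups compared). Its log2 values were 8.98 and 8.94 at 0 h, 9.00, 8.82, 8.51, 8.97, 9.96 and 10.27 in the DW arm and 8.88, 8.96, 9.30, 9.05, 8.58, 8.73, 9.16 and 9.42 in the αKG arm. The DW arrays at 48 and 72 h were the highest of the 16. In late arrays 2 of 17 were lower with αKG, Zfand5 by -0.83 ± 0.10 (adjusted p = 0.00458) and Ngly1, the N-glycanase that activates Nfe2l1, by -0.58 ± 0.11 (adjusted p = 0.0277), and without the pairing by time neither passed (adjusted p = 0.223 and 0.785). Zfand5 passed in 13 of 14 alternative fits and Ngly1 in 7, and leaving out the 3, 6, 12, 24 or 72 h pair ended the call of Ngly1 (adjusted p from 0.0505 to 0.102).

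Of the rest, 0 of 17 passed in the early and intermediate phases of either arm, in late αKG arrays or in αKG against DW over the 6 times. The transcription factor Nfe2l1 read 7.23 and 7.30 at 0 h and between 7.26 and 7.94 in the DW arm, with an early difference of 0.52 ± 0.23 (adjusted p = 0.786). Pomp, the maturation factor of the core, was at -0.44 ± 0.15 in late DW arrays (adjusted p = 0.129), and Ipo9, an importin that carries proteasomes into the nucleus, at -1.38 ± 0.41 (adjusted p = 0.0752). Without the 72 h array they were at -0.38 and -0.65, and without the 48 h array Ipo9 passed (-2.11, adjusted p = 0.00369). The median of the 17 in late DW arrays was -0.10, against -0.32 for the 17 regulatory-particle genes.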

How the data were processed

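Values came from the table the authors deposited, with 1 log2 value per feature and array; its log base is not stated and was taken from the range, 0.61 to 13.25. Per the labels' protocols, total RNA was copied to sense cDNA and labelled with biotin by a whole-transcript kit. How features were summarised, background-corrected and normalized, and the genome build, is not given in the sources used here. Nothing in the table marks background or saturation, and precision is limited by having 16 arrays.

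A single gene symbol was found for 23521 of 33793 features (1814 had several and 8458 were unnamed here), and the feature with the highest mean stood for a gene. The tests used limma 3.58.1 (lmFit, then eBayes with a trend on mean intensity) under R 4.3.3. Phases were compared with 0 h in 1 fit of 8 groups (8 residual degrees of freedom), and αKG with DW on the 12 arrays of matched times with time as a block (5 residual degrees of freedom, or 3 with 1 effect per phase). The pairing by time comes from the labels. Deviations from the arm mean correlated at r = 0.50 to 0.75 between same-time arrays, and each DW array matched the αKG array of its own time best. A shared time course would give this match too, so it does not show whether cultures were paired. All columns were mapped to samples. The fits were tested on simulated data in which 200 genes were changed. Any member could be named. Values on all arrays are given for the immunoproteasome genes, their catalytic partners and the member of each role with the smallest p in late DW arrays. For the tissue-restricted role ranges are given instead. Other members were chosen after their values were seen, and up to 4 genes with the smallest p were named from a list. Members, lists and tests were chosen with earlier results of these data known. Alternatives covered the filter on dim genes, normalization, the variance model, features per gene, the groups fitted, the time block and leaving out each array or pair. The steps from 48 to 72 h, also after quantile normalization or centring, and the counts of 1 sign at all 6 times were added after seeing the data. Promoter windows are from RefSeq (GRCm38.p6).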

Additional observations from a re-analysis of the deposited data

Results flagged for a closer look

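None of the 48 proteasome genes had an αKG effect that differed between early and late arrays past the threshold. In 3 listed genes the difference itself, tested in limma as late minus early αKG effect with adjustment over all genes, passed, as it did for 0.605% of all genes tested. It was -1.09 for Zfand5 (adjusted p = 0.0197), 0.96 for Irf7 (adjusted p = 0.0449) and 0.95 for Nlrc5 (adjusted p = 0.0495). Each kept its sign in all 14 alternative fits; the adjusted p was under 0.05 in 10 of them for Zfand5, 6 for Irf7 and 5 for Nlrc5, and it was lost for all 3 without the 3 h pair (0.252, 0.323 and 0.277) or the 6 h pair (0.277, 0.311 and 0.367), and without the pairing by time (0.756, 0.968 and 0.999). It was also lost for Irf7 and Nlrc5 without the 12 or 24 h pair and for Nlrc5 without the 72 h pair (from 0.0601 to 0.0892). Groups of 2 arrays allow no test for outlying arrays.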

How the results depend on the processing

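Counts of proteasome members past the threshold are given first. Fits of only the 2 groups compared gave 0 members in intermediate and late DW and in intermediate and late αKG, where the full fit gave 1. Leaving out any 1 array gave 0 members for early DW and for early αKG, 0 to 1 for intermediate DW, intermediate αKG and late αKG, and 1 to 10 for late DW. The 10 came without the DW array at 48 h, and the 0 came for late αKG without 0 h array 1 or the 72 h array, for intermediate DW without either 0 h array or the 24 h array, and for intermediate αKG without either 0 h array or the 12 h array. Leaving out 1 time pair gave 0 to 4 members for late αKG against DW and 0 to 3 for the late minus the early effect (Psmb9, Psmb10 and Psmg2); these highest counts both arose when 48 h was left out. With 48 h left out, the late phase rests on a lone pair, and more of all genes tested passed than in the full fits. For the late minus the early effect, the share of members passing was then below that of all genes passing in either direction. Dropping the replicate block (time) gave 0 members for αKG against DW in every test, as the paired fit did. Of the alternative values for single genes whose fitted values are printed, 504 kept their sign and side of the threshold, 112 lost a call, 7 gained one and 1 changed sign: Psma1 in late DW arrays, from -0.78 without the 48 h array to 0.037 without the 72 h array. The 7 all arose without 48 h: Psma1, Psmc1, Psmd1 and Ipo9 in late DW arrays, Psma1 and Psmc1 in late αKG against DW, and Psmb10 in the late minus the early effect. Medians of the regulatory-particle genes changed sign without the 72 h arrays, from -0.32 to 0.04 in late DW, from -0.16 to 0.03 in late αKG and from 0.11 to -0.02 in late αKG against DW. Single arrays per time, unknown background and 2 arrays per group limit the reading of small differences.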
